A study of Homo sapiens with 6 samples.

Results

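Subtelomeric R-loop peaks were taken as the peaks that lay within the first or last 1 Mb of chromosomes 1 to 22, as the chromosome length is given in GRCh38. The p ends of chromosomes 13, 14, 15, 21 and 22 were left out, so that 39 chromosome ends remained. By this rule 5750 of the 197102 peaks in the 3 lists were subtelomeric: 3027 of 101802 in proliferating cells, 2416 of 85564 in senescent cells and 307 of 9736 in quiescent cells. The zone from 1 to 5 Mb inward of the same ends, called the inner zone here, held 11309, 9464 and 994 peaks and served for comparison.

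The cells were IMR90, a line of human embryonic lung fibroblasts with a wild-type genotype, grown in 2% oxygen. Proliferating cells carried a control vector, senescent cells were made so by ectopic expression of Ras, an oncogene (the labels do not say which construct), and quiescent cells were starved. R-loops were mapped with MapR, a relative of CUT&RUN in which RNase H joined to micrococcal nuclease (RH-MNase) cuts and releases chromatin beside RNA-DNA hybrids, and GST-MNase is the background enzyme. Each state had 1 RH-MNase library, whose peak list was used, and 1 GST-MNase library, which was not analysed here.

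With 1 list per state there were no replicates, so no test between states was made, and differences between states describe these libraries. Read depth is unknown, and the number of peaks in a list depends on it. Intervals given below are 95% intervals that cover counting error only, and chromosome ends are not replicates of a condition.

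An R-loop forms when an RNA pairs with the DNA strand it was copied from and leaves the other strand single, often where the transcribed DNA is rich in G and the displaced strand can fold. Subtelomeres are the regions next to the TTAGGG repeats that cap a chromosome. They join dense clusters of ordinary genes to duplicated blocks that are nearly alike on many ends, and transcription of the telomeric RNA TERRA starts within them and runs outward. The repeats themselves cannot be followed here, since peaks were placed on the assembled sequence.

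The promoter sequences below show what the lists did and did not mark at the chromosome ends. Each is the 250 bases before a start of a gene, 5′ to 3′ on the gene's own strand, from RefSeq on GRCh38.p14. Capitals mark runs of 4 or more G or C. A promoter counted as overlapping a peak when the peak touched these bases or the 50 after the start. FAM20C (chr7:192321-192570, + strand), which encodes a kinase of secreted proteins, had a promoter that overlapped peaks of all 3 lists. So did SLC25A22 (chr11:797999-798248, - strand), a mitochondrial glutamate carrier. The start used for SLC25A22 was an inner one, so the bases shown lie inside the annotated gene (chr11:790475-798281). Its quiescent peak (chr11:797395-797980) lay outside the bases shown and touched only the 50 after that start. IFITM3 (chr11:320861-321110, - strand), an interferon-induced membrane protein that restricts viruses, overlapped proliferating and senescent peaks. HRAS (chr11:535577-535826, - strand), one of the Ras genes, and CFD (chr19:859414-859663, + strand), complement factor D, overlapped proliferating peaks alone. FAM110C (chr2:46506-46755, - strand), near the end of 2p, overlapped no peak.
FAM20C: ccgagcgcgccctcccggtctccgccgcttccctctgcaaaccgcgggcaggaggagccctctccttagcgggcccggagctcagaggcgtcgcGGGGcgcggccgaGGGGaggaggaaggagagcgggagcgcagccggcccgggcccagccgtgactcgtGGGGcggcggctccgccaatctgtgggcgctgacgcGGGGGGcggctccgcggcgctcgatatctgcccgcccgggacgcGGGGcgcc
SLC25A22: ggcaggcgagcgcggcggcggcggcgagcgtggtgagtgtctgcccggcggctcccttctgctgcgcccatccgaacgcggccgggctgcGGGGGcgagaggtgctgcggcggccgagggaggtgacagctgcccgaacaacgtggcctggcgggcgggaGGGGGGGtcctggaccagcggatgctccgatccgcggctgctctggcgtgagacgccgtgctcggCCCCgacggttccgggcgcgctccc
IFITM3: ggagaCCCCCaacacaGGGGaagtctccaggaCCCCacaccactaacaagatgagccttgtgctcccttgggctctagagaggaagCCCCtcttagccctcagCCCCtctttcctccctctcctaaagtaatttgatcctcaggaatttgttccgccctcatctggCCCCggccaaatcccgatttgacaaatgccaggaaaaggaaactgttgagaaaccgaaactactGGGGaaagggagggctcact
HRAS: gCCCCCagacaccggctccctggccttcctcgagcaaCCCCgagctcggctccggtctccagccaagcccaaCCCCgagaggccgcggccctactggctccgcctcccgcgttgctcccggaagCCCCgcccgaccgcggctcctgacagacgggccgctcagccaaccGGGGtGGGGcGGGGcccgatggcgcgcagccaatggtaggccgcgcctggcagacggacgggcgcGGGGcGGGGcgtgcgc
CFD: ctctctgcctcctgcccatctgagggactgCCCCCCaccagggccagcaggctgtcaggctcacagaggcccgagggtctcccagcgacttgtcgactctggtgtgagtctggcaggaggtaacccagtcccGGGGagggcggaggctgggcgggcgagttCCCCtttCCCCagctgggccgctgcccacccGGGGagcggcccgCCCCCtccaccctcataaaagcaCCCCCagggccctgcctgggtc
FAM110C: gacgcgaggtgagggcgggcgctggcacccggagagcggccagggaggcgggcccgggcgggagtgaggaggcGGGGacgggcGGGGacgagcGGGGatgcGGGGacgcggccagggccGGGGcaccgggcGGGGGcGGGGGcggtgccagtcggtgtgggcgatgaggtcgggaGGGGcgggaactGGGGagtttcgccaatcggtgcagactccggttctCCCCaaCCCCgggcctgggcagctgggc

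The FAM110C sequence, under no peak, held 11 such runs and 78.4% G and C. The FAM20C sequence, from a promoter that overlapped a peak in every list, held 5 runs and the same 78.4%. SLC25A22 held 3 runs at 77.2%, HRAS 9 runs at 77.2%, CFD 7 runs at 70.8% and IFITM3 7 runs at 54.0%. These 6 sequences were chosen after their values were seen. A run of 4 G or C, GGGG on either strand, occurred in 630 of 668 subtelomeric promoters of this length (94.3%) and in 19329 of all 21041 (91.9%). The telomere hexamer, TTAGGG on either strand, occurred in 41 subtelomeric promoters (6.14%) against 7.97% of all, and in none of the 6 shown. Of the 459 subtelomeric promoters under a proliferating peak 96.9% held such a run of G or C. Of the 202 under no peak in any list 88.6% did. Among all promoters the shares were 96.5% under a proliferating peak and 80.7% under no peak. In the inner zone they were 98.2% and 88.6%, so the contrast was not particular to subtelomeres. These shares cover only the promoters given in the RefSeq table, which held several for some genes and at least 1 for 490 of the 644 subtelomeric genes (76.1%). A match of letters is a description and no sign of a structure.

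Peaks were dense toward the chromosome ends in every list, and the subtelomeres and the inner zone were close to each other. Proliferating cells had 77.6 peaks per Mb (74.9 to 80.4) in the outer 1 Mb and 72.5 (71.2 to 73.8) in the inner zone, against 31.9 over the rest of the autosomes. Senescent cells had 61.9 (59.5 to 64.5), 60.7 (59.5 to 61.9) and 27.0, and quiescent cells 7.87 (7.02 to 8.80), 6.37 (5.98 to 6.78) and 3.09. The ratio of the outer to the inner density was 1.07 (1.03 to 1.11) in proliferating cells, 1.02 (0.976 to 1.07) in senescent cells and 1.24 (1.08 to 1.41) in quiescent cells. The outer to rest ratio was 2.43, 2.30 and 2.55 in that order. In proliferating cells the small excess over the inner zone depended on single ends: without 22q it was 1.03 (0.988 to 1.07), and without 5p 1.04 (0.997 to 1.08).

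Within the outer 1 Mb the density was lowest next to the end, as counted per Mb of full GRCh38 length. Gaps of the assembly near the ends were not mapped or taken out of that length. The densities of peaks, and of genes below, in the outermost bands may therefore be too low. In the outermost 100 kb proliferating cells had 46.9 peaks per Mb (40.4 to 54.2), followed by 60.3 at 100 to 250 kb, 69.3 at 250 to 500 kb and 93.1 (88.8 to 97.5) at 500 to 1000 kb. Just past the 1 Mb line, at 1 to 2 Mb, the density was again 93.1 (90.1 to 96.2), and it was 67.8, 66.2 and 63.0 in the 3 Mb beyond. The senescent list had 36.7 in the outermost 100 kb, 74.1 at 500 to 1000 kb and 78.6 at 1 to 2 Mb, and the quiescent list 4.10, 8.92 and 8.23. In all 3 lists the densest band lay between 500 kb and 2 Mb. When the outer zone was narrowed to 500 kb the proliferating ratio was 0.857 (0.807 to 0.909), on the other side of 1.

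**Figure D1:**
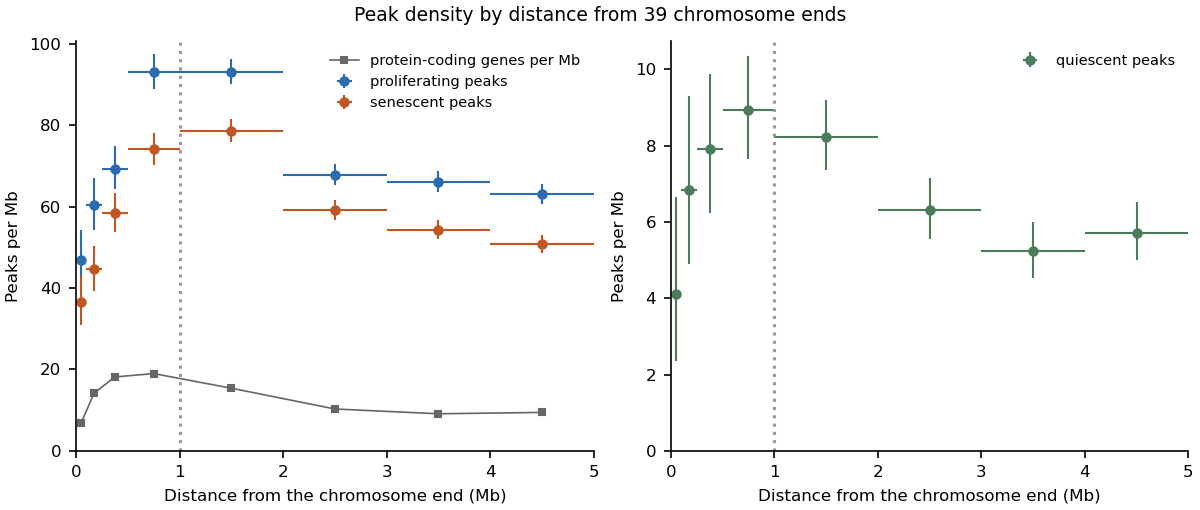
Peaks per Mb (vertical axis, zero-based) against distance from the chromosome end (Mb), over 39 ends, for the proliferating and senescent lists on the left and the quiescent list on the right. Vertical bars are 95% Poisson intervals, horizontal bars the width of each band, grey squares protein-coding genes per Mb and the dotted line the 1 Mb limit. The proliferating density is 46.9 in the outermost 100 kb and 93.1 on both sides of the limit. Gaps of the assembly were not taken out of the band lengths.

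Gene density had a similar shape. There were 16.5 protein-coding genes per Mb in the outer 1 Mb, 10.9 in the inner zone and 6.20 over the rest of the autosomes, and by band the numbers were 6.92 in the outermost 100 kb, 18.97 at 500 to 1000 kb, 15.4 at 1 to 2 Mb and 9.44 at 4 to 5 Mb. Set against the 644 genes of the outer 1 Mb, proliferating peaks were fewer per gene (4.70) than in the inner zone (6.65), and so were senescent peaks (3.75 and 5.57) and quiescent peaks (0.477 and 0.585). Across the 39 ends the number of peaks and the number of genes in the outer 1 Mb had a Pearson correlation of 0.729 in the proliferating, 0.753 in the senescent and 0.803 in the quiescent list. The ends share their library, so these values are descriptions. Of the 390 bins of 100 kb in the outer zone 384 held a gene or a peak, and of the 1560 in the inner zone 1491 did.

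Widths differed little between the zones and more between the states. The median proliferating peak was 555 bp wide in the outer zone (534 to 577) and 555 bp in the inner zone. Senescent medians were 513 bp (497 to 530) and 497 bp, and quiescent medians 335 bp (311 to 365) and 342 bp. Peaks over 2000 bp made up 8.89% of subtelomeric proliferating peaks, 3.35% of senescent and 0.326% of quiescent ones. Together the peaks covered 6.74% of the outer 1 Mb in proliferating cells, 4.26% in senescent cells and 0.325% in quiescent cells, against 6.19%, 4.12% and 0.266% of the inner zone. The widest subtelomeric peaks were at genes. In proliferating cells a peak of 9274 bp lay at an end of PLXNB2 on 22q, a receptor for semaphorins, and one of 9270 bp overlapped POLR2L, CD151 and TSPAN4 on 11p, a subunit of RNA polymerases and members of the tetraspanin family. In senescent cells the widest, 8114 bp, lay over SAMD11 and NOC2L on 1p.

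The ends differed far more from each other than the zones did. The outer 1 Mb of an end held 0 to 190 proliferating peaks with a median of 69, 0 to 164 senescent peaks with a median of 56, and 0 to 25 quiescent peaks with a median of 5. The 5 ends with most proliferating peaks were 16p with 190, 11p with 171, 22q with 168, 19p with 163 and 20q with 156, which together held 28.0% of them. They are gene-rich, with 49 protein-coding genes in the outer 1 Mb of 16p, 45 of 11p, 37 of 22q, 33 of 19p and 32 of 20q. The fewest were at 14q with 0, 3p with 7, 2p with 9, 4q with 14, and 11q and 1q with 18 each. Peak number did not always go with genes: 1q had 31 protein-coding genes and 18 proliferating peaks, while 5p had 14 genes and 106 peaks. Most of the 31 genes of 1q were olfactory receptor genes, which had no peak in any list.

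Against their own inner zone, 20 of 39 ends were denser outside than inside in the proliferating list, 20 in the senescent and 23 in the quiescent list. The highest ratio in the proliferating list was at 5p, with 106 peaks in the outer 1 Mb against 15.8 per Mb further in, a ratio of 6.73. Ends 12q (65 against 17.3 per Mb) and 22q (168 against 51.5) had the next highest ratios, 3.77 and 3.26. The opposite order held at 9q, with 61 against 178, and at 1p, with 79 against 134.

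**Figure D2:**
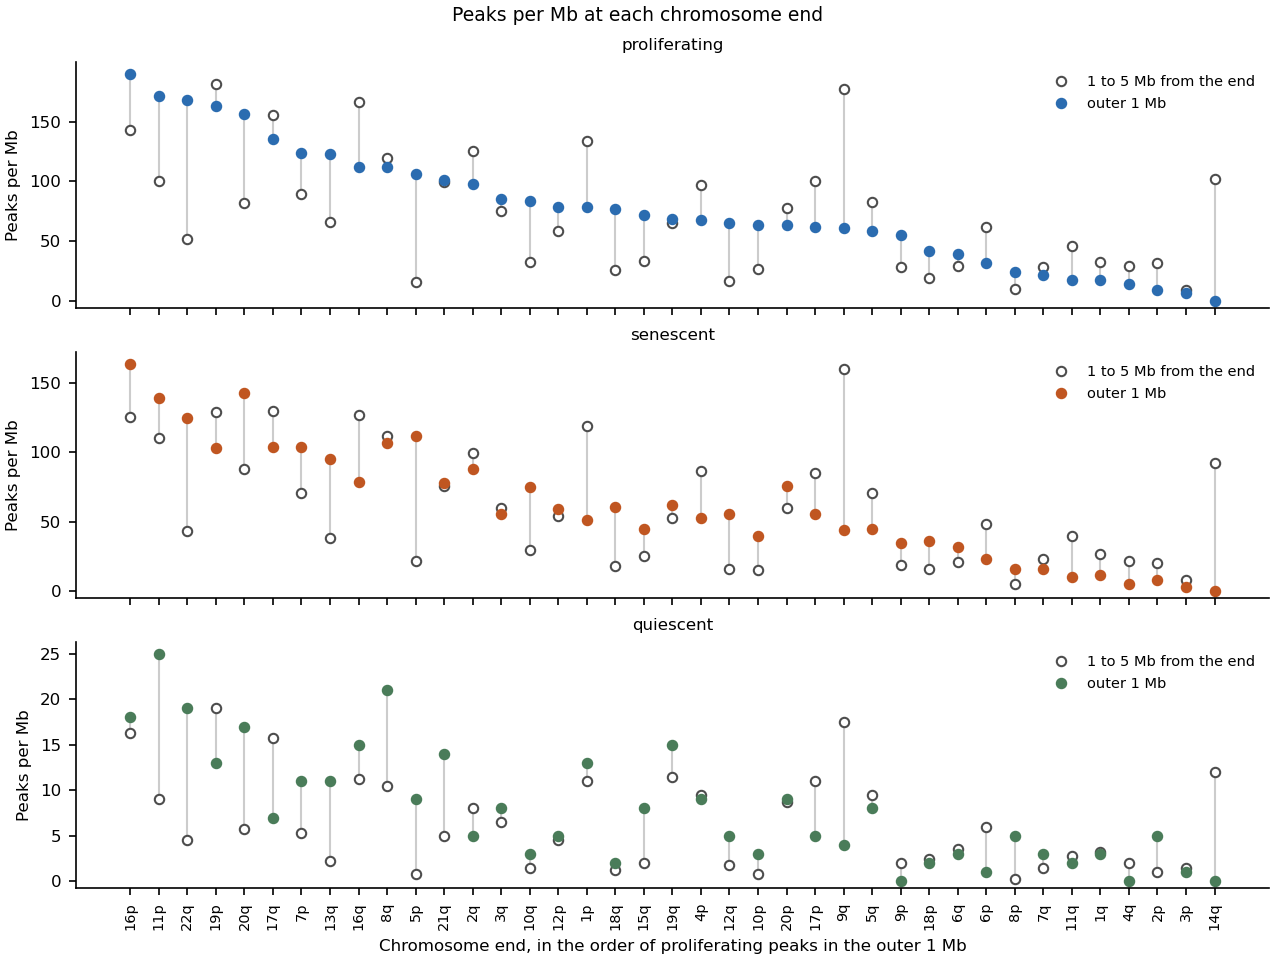
Peaks per Mb (vertical axis) at each of 39 chromosome ends (horizontal axis, in the order of proliferating peaks), with filled points for the outer 1 Mb, open points for the inner zone from 1 to 5 Mb, and a panel for each list. Filled points lie above open ones at 20 ends in the proliferating, 20 in the senescent and 23 in the quiescent list, with 5p far above and 9q far below its inner zone.

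The outer 1 Mb of 14q held no peak in any list. The nearest peak to that end lay 1477 kb inward in the proliferating, 1299.95 kb in the senescent and 1554 kb in the quiescent list. This stretch holds the variable segments of the immunoglobulin heavy chain locus, which B cells rearrange. Of its 133 RefSeq entries 42 were variable segments, 76 were pseudogenes of such segments and 0 were protein-coding genes. Ends 4q and 9p, too, had no quiescent peak, with 14 and 55 proliferating peaks. On 4q, DUX4, a transcription factor of the early embryo encoded in a repeat array, and FRG2 had no peak in any list, while FRG1, a nuclear actin-bundling protein, had 1 in proliferating and 1 in senescent cells. DUX4 and FRG2 are listed with the duplicated families described below. Reads from near-identical copies cannot be placed with certainty, so a lack of peaks there need not mean a lack of R-loops.

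Peaks were also uneven along each end. Of 780 bins of 50 kb in the outer 1 Mb, 205 had no proliferating peak (26.3%), 241 no senescent (30.9%) and 587 no quiescent peak (75.3%). Peaks took up over 20% of 69 bins in proliferating and of 24 in senescent cells. The bin with the highest share was the same in every list, 800 to 850 kb from the end of 11p, with 62.7% in the proliferating, 44.6% in the senescent and 10.3% in the quiescent list.

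**Figure D3:**
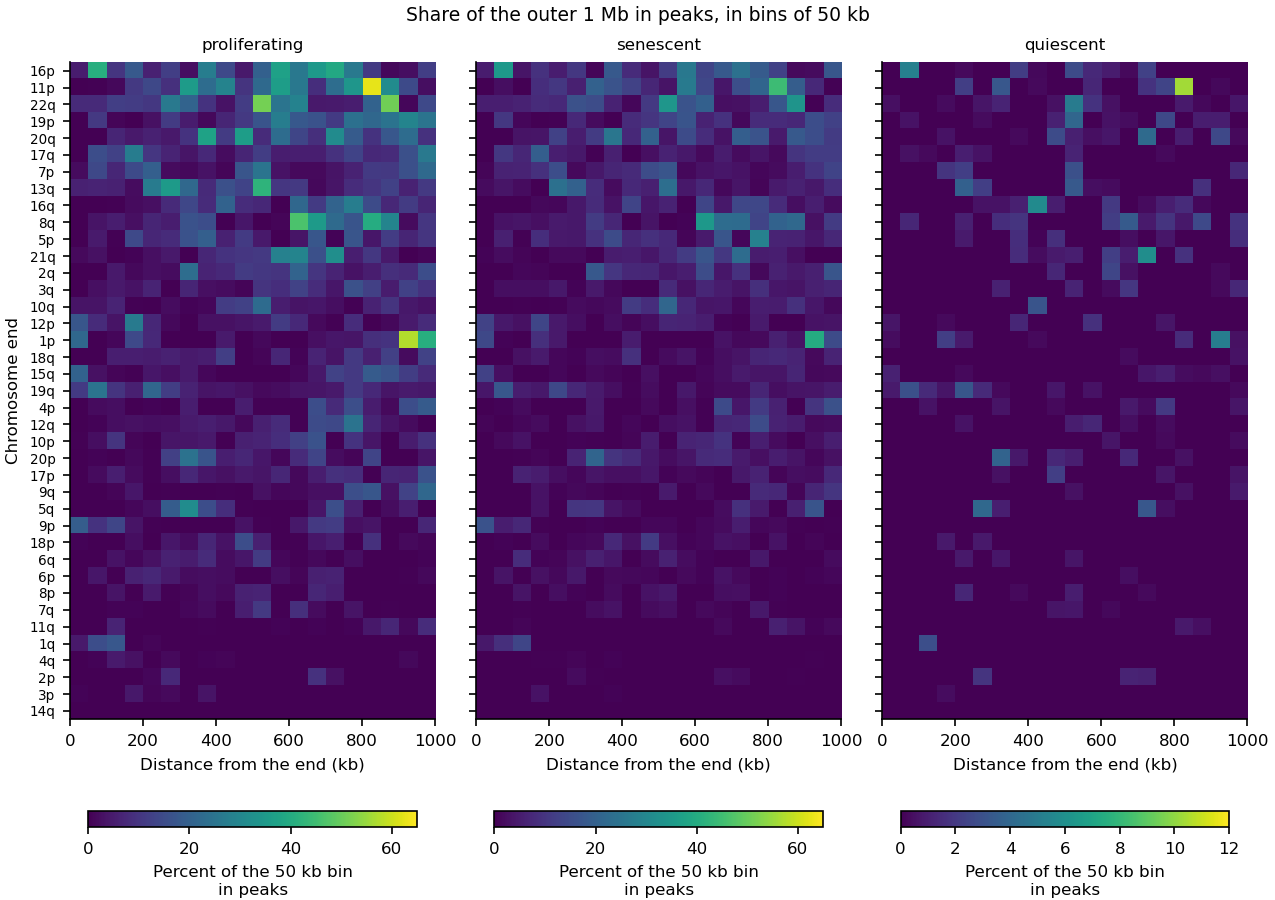
Percent of each 50 kb bin in peaks (colour) by distance from the end (horizontal axis, kb) at 39 ends (vertical axis, in the order of proliferating peaks), for the 3 lists; the quiescent colour scale is narrower than the other two. Peaks gather in a few bins, of which that at 800 to 850 kb of 11p is the highest in each list, and 14q is empty.

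The peaks nearest to the chromosome ends lay just over 10 kb inward in proliferating cells, at 1q (10.2 kb), 16p (10.2 kb), 3p (10.4 kb), 12p (11.3 kb) and 18p (11.3 kb). These distances run from the ends of the full GRCh38 chromosome lengths. Gaps of the assembly at the ends were not mapped, so the distance from the outermost assembled base is unknown. In the senescent list the nearest were at 1p (12.8 kb), 12p (12.8 kb), 9p (13.05 kb), 15q (13.4 kb) and 16p (13.5 kb), and in the quiescent list at 1p (28.7 kb), 15q (29.4 kb), 22q (34.9 kb) and 12p and 19q (36.4 kb each). Several of these fell on the duplicated WASH and DDX11L families, copies of genes for an actin nucleation complex and a DNA helicase. For genes, coverage is given from here on as the percent in peaks of the locus, meaning the gene plus 1000 bp at both ends. WASHC1, on 9p, had 7 proliferating peaks over 31.5% of its locus, 5 senescent peaks over 24.2% and no quiescent peak. WASH7P on 1p had 33.2%, 26.1% and 1.11% of its locus in peaks, and WASH3P on 15q 26.8%, 20.4% and 0.871%. The lncRNA copies FAM138A, FAM138E and FAM138F on 1p, 15q and 19p had 53.9%, 64.97% and 48.4% in proliferating peaks and 23.8%, 26.6% and 25.1% in senescent peaks. Reads from near-identical copies cannot be placed with certainty, and the sources used here do not say how they were treated, so these values may be shared between copies. In the list of duplicated families and other genes close to the ends 41 entries lay in the outer 1 Mb, pseudogenes and lncRNAs among them. Of the 41, 24 had a proliferating peak at an end of the gene (58.5%), 21 a senescent (51.2%) and 6 a quiescent one (14.6%). Of all autosomal protein-coding genes, a set without pseudogenes and lncRNAs, 76.9%, 71.7% and 28.5% had one. In 17 of the 41 no part of the locus lay in proliferating or senescent peaks. Among these 17 were the olfactory receptors OR4F5, OR4F16, OR4F17 and OR4F29, together with TUBB8B.

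Peaks were next set against genes. A peak was counted as at a gene end when it touched the 1000 bp on either side of either end of a protein-coding or lncRNA gene. Gene-end peaks made up 32.3% of subtelomeric proliferating peaks (30.7 to 34.0) against 25.6% in the inner zone, a difference of 6.70 percentage points (4.87 to 8.57). For senescent peaks it was 36.1% against 27.3%, a difference of 8.80 points (6.70 to 10.9), and for quiescent peaks 62.5% against 54.6%, a difference of 7.91 points (1.58 to 13.99). Counted by gene, the difference between the zones was within counting error. A gene-end peak was found at 525 of 644 subtelomeric protein-coding genes in proliferating cells (81.5%, against 81.8% in the inner zone and 76.9% of all autosomal genes). In senescent cells 495 had one (76.9%, against 75.8% and 71.7%), and in quiescent cells 185 (28.7%, against 27.4% and 28.5%). The intervals of the differences between outer and inner zone were -3.88 to 3.15, -2.84 to 4.83 and -2.63 to 5.54 percentage points.

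The lists were then compared at the same sites. Of subtelomeric proliferating peaks 1561 shared at least 1 bp with a senescent peak (51.6%, 49.8 to 53.3), near the 52.4% of the inner zone and the 50% of all autosomal peaks, with a difference between the zones of -0.86 points (-2.86 to 1.14). Of senescent peaks 1752 had a proliferating partner (72.5%, 70.7 to 74.3), against 69.1% of the inner zone and 65.8% of all, a difference between the zones of 3.41 points (1.38 to 5.39). Without 11p, where 125 of 139 senescent peaks had a proliferating partner (89.9%), that difference was 2.03 points (-0.08 to 4.09), and among equal numbers of the highest-scoring peaks of each list it was -2.29 points (-8.36 to 3.94). Nearly every quiescent peak overlapped a proliferating peak: 305 of 307 (99.3%, against 99.4% of all), and 291 overlapped a senescent peak (94.8%, against 94.3%). Conversely 263 proliferating peaks overlapped a quiescent one (8.69%, against 8.27% of all and 7.62% of the inner zone), and 274 senescent peaks did (11.3%, against 9.95% of all and 9.27% of the inner zone, a difference between the zones of 2.07 points with an interval of 0.729 to 3.52).

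How often a peak had a partner went with its score, the authors' value of peak strength, whose scale is not stated and which was used only within a list. In the lowest of 5 score groups of the proliferating list 21.4% of subtelomeric peaks overlapped a senescent peak, and in the highest 91.4%. The inner zone ran from 25.6% to 90.3%. Senescent peaks went from 45.1% to 93.9% in the outer and from 45.6% to 91.7% in the inner zone. The zones differed most in score group 4 of the senescent list, with 85.8% in the outer and 79.6% in the inner zone (6.23 points, 2.43 to 9.60). In the proliferating list the outer zone was lower in group 1 by -4.19 points (-7.73 to -0.39) and in group 3 by -4.62 points (-8.91 to -0.30). The intervals of the other 7 groups included 0. Proliferating subtelomeric peaks found in both other lists (258) had a median width of 2029 bp, those shared with the senescent list alone (1303) one of 817 bp, and those in neither (1461) one of 380 bp. A gene end was touched by 70.2%, 38.1% and 20.5% of these 3 classes. The inner zone had medians of 2011, 779 and 388 bp and gene-end shares of 64.5%, 28.3% and 17.0%, in the same order.

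**Figure D4:**
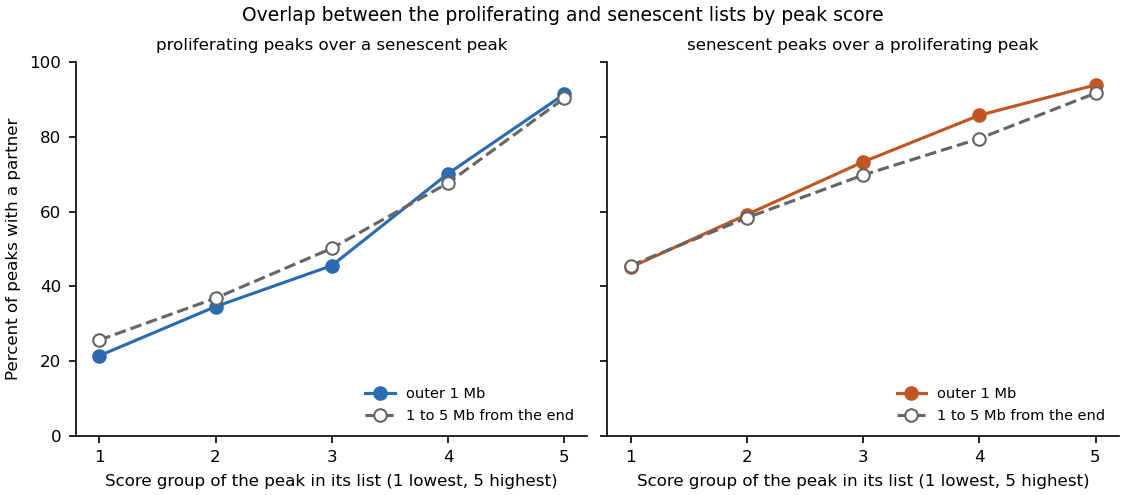
Percent of proliferating peaks over a senescent peak (left) and of senescent peaks over a proliferating peak (right), vertical axis, in 5 score groups of each list (horizontal axis), for the outer 1 Mb (filled) and the inner zone (open). The share runs from 21.4% to 91.4% in the outer zone on the left and from 45.1% to 93.9% on the right, with the widest gap between the zones in group 4 on the right (85.8% and 79.6%).

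The senescent list was shorter than the proliferating list at most ends. It held 0.798 senescent peaks for each proliferating peak in the outer 1 Mb and 0.837 in the inner zone, and the ratio of these was 0.954 (0.898 to 1.01). Of the 38 ends with peaks, only 5p (112 senescent and 106 proliferating) and 20p (76 and 64) had more senescent peaks. At 20p 41 of the 76 senescent peaks had a proliferating partner (53.9%), at 5p 67 of 112 (59.8%), and at 10q 29 of 75 (38.7%), against 89.9% at 11p and 55 of 62 at 19q (88.7%). At 5p the genes in question included TPPP, a tubulin-binding protein, with 13 senescent and 7 proliferating peaks in its locus, and ZDHHC11B, a member of a palmitoyltransferase family with near copies, with 12 and 8. Both were chosen after their values were seen.

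At the level of genes, 482 of the 644 subtelomeric protein-coding genes had a gene-end peak in both the proliferating and the senescent list (74.8%), 43 in the proliferating list alone (6.68%), 13 in the senescent list alone (2.02%) and 106 in neither (16.5%). In the inner zone the shares were 73.2%, 8.59%, 2.59% and 15.6%, and over all autosomal genes 69.1%, 7.80%, 2.55% and 20.5%. The share of the locus in peaks was lower in senescent cells at 491 genes (76.2%, against 73.3% of all autosomal genes) and higher at 83 (12.9%, against 13.5%). The median gene of the outer 1 Mb had 11.6% of its locus in proliferating and 6.79% in senescent peaks. These medians were 11.95% and 7.15% in the inner zone, and 6.14% and 3.39% over all autosomal genes. The values of each state describe 1 library, and the proliferating list is longer and its peaks wider.

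HRAS stood far below the line of equality between the lists. Its locus on 11p was 77.5% covered in proliferating cells, by 3 peaks at chr11:530772-532809 (score 14), chr11:533448-534908 (score 33) and chr11:535471-538072 (score 36), the last of which spans the promoter sequence shown above. Neither of the other lists had a peak in its locus. The nearest senescent peak, of 195 bp and score 13, lay 4591 bp from the gene, and the nearest quiescent peak 32508 bp from it. The neighbour RASSF7, a Ras-association domain protein on the same end, showed the opposite: 63.7% in proliferating, 79.98% in senescent and 0 in quiescent peaks.

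**Figure D5:**
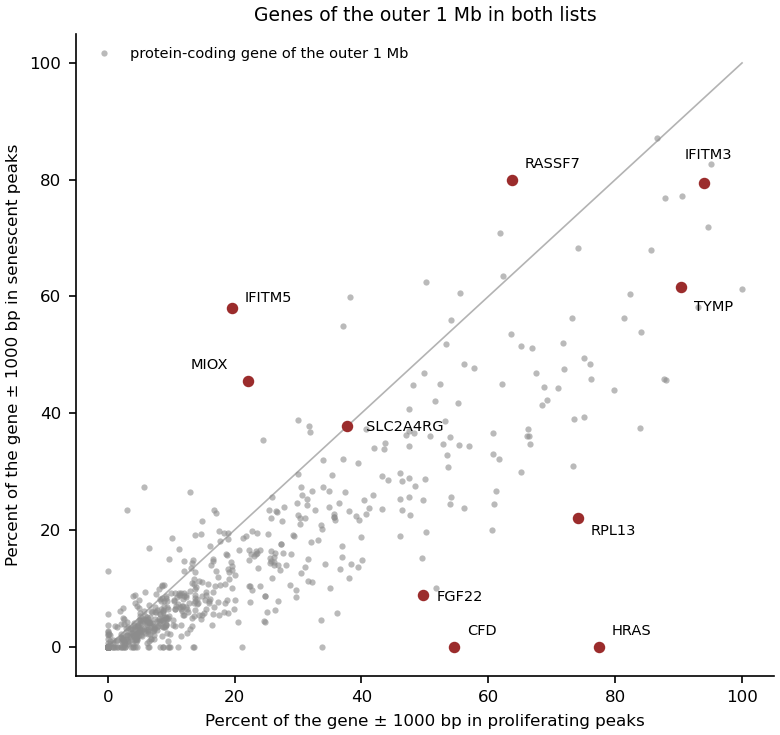
Percent of the locus of each of 644 protein-coding genes of the outer 1 Mb in senescent peaks (vertical axis) against proliferating peaks (horizontal axis), 1 point per gene, with the line of equality. Of the genes 491 lie below the line and 83 above it; HRAS and CFD lie at 0 on the senescent axis.

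Genes marked at an end in the proliferating list, without a senescent peak within 5000 bp, numbered 11 of 644 (1.71%, against 2.5% of all autosomal genes). The highest by score were CFD (score 44), ZNF586 (39), PIGG (35), an enzyme of the glycosylphosphatidylinositol anchor, ZNF84 (27) and SPRN (25), followed by ZNF606, NLRP6, ZNF268, ADCYAP1 and LOC124904095. CFD had 2 proliferating peaks over 54.6% of its locus, at chr19:858666-861015 and chr19:863443-864357, and its nearest senescent peak lay 6063 bp away. The zinc finger genes among them had little of their locus in peaks, from 0.855% in ZNF268 to 6.32% in ZNF586. The reverse pattern was seen at 2 genes (0.311%, against 0.748% of all): LOC124904333 on 18q (score 15) and ANGPT4 on 20p (score 14), a ligand of the endothelial receptor TIE2. ANGPT4 had 5 senescent peaks in its locus and no proliferating peak nearer than 24014 bp.

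A gene-end peak was present in all 3 lists at 184 subtelomeric genes (28.6%, against 28.2% of all). Ranked by quiescent score they were led by PANO1 and SLC25A22, which share a peak on 11p with scores of 62 in the quiescent, 89 in the proliferating and 48 in the senescent list. TNFRSF6B, a decoy receptor for Fas ligand, and ARFRP1, a GTPase of the Golgi, shared one on 20q with scores of 59, 56 and 40. SCO2, which helps to assemble cytochrome c oxidase, and TYMP, thymidine phosphorylase, shared one on 22q with a quiescent score of 49. NCAPG2 (7q), SLC2A4RG (20q), FAM20C (7p) and DCUN1D2 (13q) followed with quiescent scores of 48, 46, 44 and 40. Scores from different lists are not on a known common scale.

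The highest subtelomeric peak of the proliferating list was at SLC2A4RG, a transcription factor gene of 20q, at chr20:63740252-63741813, with a score of 146 and the second rank in the whole list. It had a partner of score 53 in the senescent and 46 in the quiescent list. LOC105373480 on 2p (score 121), SPATC1L on 21q (114), a site outside genes on 7p (102) and FTCD on 21q (101) came next. The highest senescent peaks lay in CFAP46 on 10q, a cilium protein (score 81, 3065 bp wide), at PGAP6 on 16p (74) and in SCGB1C1 on 11p (68). Each had a proliferating partner, of score 40, 56 and 33. A site outside genes on 9q (61) and LOC124904094 on 17q (60) came next, with proliferating partners of score 38 and 43. The peaks in CFAP46, SCGB1C1 and LOC124904094 had no quiescent partner. In the quiescent list the peaks at SLC25A22 and ARFRP1 were followed by one at LOC105372485 and SLC27A5, a bile acid and fatty acid ligase gene of 19q (score 59), a site outside genes on 22q (50) and the peak at SCO2 and TYMP (49).

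Gene groups that lie at the chromosome ends are described by the share of each locus in peaks, first in proliferating and then in senescent cells. They were chosen by position, with results of these data known, and were not tested. For reading the counts, 76.9% of all autosomal protein-coding genes had a proliferating, 71.7% a senescent and 28.5% a quiescent gene-end peak, and 73.3% had a lower share in senescent cells. In the alpha-globin cluster of 16p and its flank, all 17 genes had a proliferating gene-end peak, 15 a senescent (88.2%) and 4 a quiescent one (23.5%, against 28.5% of all genes), and the median gene had 30.4% and 21.1% of its locus in peaks. HBA1, which encodes the alpha chain of haemoglobin, had 46.0% and 25.3%, HBA2, its near-identical copy, 13.7% and 0, and HBQ1 65.1% and 29.8%. Reads from HBA1 and HBA2 cannot be told apart with certainty. The neighbours MPG, a DNA glycosylase, and RHBDF1, a rhomboid-like protein, had 57.8% and 47.7%, and 54.1% and 55.9%, and both had quiescent peaks.

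All 8 listed genes of interferon and immune signalling in the outer 1 Mb were marked at a gene end by proliferating and senescent peaks (76.9% and 71.7% of all genes were), and 4 also by quiescent peaks. The latter were the IFITM genes of 11p. IFITM1 had 85.6% of its locus in proliferating, 68.0% in senescent and 6.53% in quiescent peaks, IFITM2 93.1%, 58.1% and 9.30%, and IFITM3 93.9%, 79.5% and 13.1%. In proliferating cells 1 peak of 8745 bp spanned IFITM2 and IFITM1, where the senescent list had 3 separate peaks of 1652, 1151 and 2197 bp. IFITM5, expressed in bone, had the reverse order, with 19.6% in proliferating, 58.0% in senescent and 4.51% in quiescent peaks, the largest excess of the senescent list among the named subtelomeric genes. These genes are alike in sequence, so their reads may be shared. IRF7, a regulator of interferon genes, had 76.0% and 48.4%, and SIGIRR, an inhibitor of interleukin signalling, 49.7% and 25.1%. PDCD1, the receptor PD-1, had 31.9% and 36.7%.

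Of 14 Ras and growth signalling genes, all carried a proliferating peak at a gene end, 12 a senescent (85.7%, against 71.7% of all genes) and 5 a quiescent one (35.7%, against 28.5%). A lower covered share in senescent cells was found at 12 (85.7%, against 73.3% of all). Besides HRAS the widest gap was at FGF22, a fibroblast growth factor on 19p, with 49.8% and 8.82%. GAS6, a ligand of TAM receptors, had 41.3% and 23.8%, and RASA3, a GTPase-activating protein for Ras, had 32 proliferating and 26 senescent peaks over 27.7% and 16.04% of its locus. RASSF7 and PRKAR1B (2.84% and 3.25%) were the 2 with the higher value in senescent cells.

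All 16 genome maintenance genes carried a gene-end peak in proliferating cells (76.9% of all genes did), 15 in senescent (93.8%, against 71.7%) and 5 in quiescent cells (31.3%, against 28.5%), with medians of 4.58% and 2.10% of the locus. CHFR, a mitotic checkpoint ligase, had no senescent peak. RTEL1, the helicase that unwinds telomeric loops and takes apart R-loops, had 8 peaks in each list over 18.9% and 19.4% of its locus, the single member with the higher value in senescent cells, and none in quiescent cells. THOC1, of the THO complex that packs new transcripts and limits R-loops, had 1 peak in each list, of 1980 bp in the proliferating, 531 bp in the senescent and 403 bp in the quiescent list. NCAPG2 and NCAPH2, subunits of condensin II, had 4.60% and 1.60%, and 19.6% and 13.2%.

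Each of the 14 genes listed as mitochondrial was marked at an end in proliferating and senescent cells, and 10 were in quiescent cells (71.4%, against 28.5% of all genes). The 10 include TYMP and TALDO1, which are cytosolic enzymes. The medians were 17.0% and 17.6%, although 12 of the 14 were lower in senescent cells (85.7%, against 73.3% of all). SLC25A22 had 76.1% and 45.8%, TYMP 90.4% and 61.6%, SCO2 63.5% and 53.6%, and SDHA, a subunit of succinate dehydrogenase, 7.44% and 3.48%. The list of zinc finger genes of 4p, 12q and 19q held 27 in the outer 1 Mb, with TRIM28, the corepressor of many of them, counted among these. Of the 27, 25 had a proliferating (92.6%, against 76.9% of all genes), 22 a senescent (81.5%, against 71.7%) and 7 a quiescent gene-end peak (25.9%, against 28.5%). The list left out other zinc finger genes of the outer 1 Mb of 19q, so the shares describe the listed genes only. Among those left out were ZNF211, with a gene-end peak in every list, and ZNF586 and ZNF606, without a senescent peak within 5000 bp. The medians of the listed genes were 5.12% and 3.58%, and 25 were lower (92.6%, against 73.3% of all) and 1 higher in senescent cells. TRIM28 itself had 28.8% and 15.8%.

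The neutrophil granule genes AZU1, PRTN3 and ELANE of 19p, whose products are typical of myeloid cells, were listed with their neighbour CFD. All 4 had a proliferating gene-end peak, where 76.9% of all genes did. AZU1 had 9.50% of its locus in proliferating peaks and 0 in senescent peaks, PRTN3 11.8% and 6.98%, ELANE 18.3% and 5.96%, and CFD 54.6% and 0. None had a quiescent peak. The collagen VI genes of 21q, which encode a matrix protein of fibroblasts, had 12 proliferating peaks each. COL6A1 had 33.1% and 18.3%, with 3.61% in quiescent cells, and COL6A2 30.4% and 12.6%, with 2.53%. S100B, a glial calcium-binding protein close to the end of 21q, had no peak in any list. Among ribosomal protein genes RPL13 on 16q had 74.2% and 22.1%, RPLP2 on 11p 43.2% and 23.6%, and RPL35A on 3q 13.3% and 14.3%.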

How the data were processed

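A single MapR peak list per state, from the RH-MNase libraries, was analysed. The submitters' processing notes name the build GRCh38, MACS2 2.2.7.1, Bowtie2 2.4.5 and FastQC 0.11.9. Settings, control and read filters are not stated there. For each peak the authors deposited its position and a score, which was a whole number, never under 10, on no stated scale. The lists are per library. Read depth is unknown.

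Zones were measured from the GRCh38 chromosome lengths, and a peak or gene belonged to a zone when it lay wholly within it; 2 proliferating and 2 senescent peaks crossed the 1 Mb limit and were not counted as subtelomeric. Peaks overlapped when they shared 1 bp. The gene table was RefSeq's for GRCh38.p14, without strand or exons, and held 56080 autosomal entries, 18973 of them protein-coding, after 676 on other scaffolds were dropped. Promoter sequences matched 490 of 644 subtelomeric genes (76.1%), under 80%, so G and C content was not compared between gene sets, and shares of promoters with a motif describe the matched promoters only.

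Intervals are Wilson for shares, Newcombe for their differences, exact binomial for density ratios, Poisson for densities and order statistics for medians. The ratio of number ratios has a log-normal interval. Scripts used Python 3.11.15 with numpy 2.4.6, pandas 2.3.3, scipy 1.17.1 and statsmodels 0.14.6, and were checked on simulated peaks. Alternatives were score and number limits, other zone limits, ends left out in turn, wide peaks left out, midpoints, occupied bins, other overlap rules and other gene-end windows.

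Members, gene lists and rules were chosen with earlier results of these data known. The text names the genes at the 5 highest peaks of each list, the 5 ends with most and fewest proliferating peaks, up to 10 genes marked in 1 of the proliferating and senescent lists or in all 3, members of 10 gene lists and the peaks nearest to the ends. The widest peaks, the genes of 5p and the printed sequences were chosen after their values were seen. Genes of chromosome 8 were counted and not named.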

Additional observations from a re-analysis of the deposited data

How the results depend on the processing

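The 6 kinds of value were recomputed under the alternatives, apart from leaving out single ends, in 103 cases. Of these 86 stayed within the 95% interval of the reported value, 15 moved outside it and 2 passed to the other side of no difference. With equal numbers of peaks, the density ratio was 1.17 in proliferating and 1.18 in senescent cells, the proliferating width ratio 1.05, and the overlap differences were -4.56 points (proliferating with senescent), -2.29 (senescent with proliferating, on the other side of 0), -2.88 (quiescent with proliferating) and 1.84 (quiescent with senescent). With an outer zone of 500 kb the density ratio was 0.857 (proliferating, on the other side of 1), 0.820 (senescent) and 1.07 (quiescent); with 2 Mb it was 1.30 (proliferating) and 1.28 (senescent); without the outermost 100 kb it was 1.12 (proliferating). With the upper part of each list by score (from its median up) the senescent to proliferating overlap difference was 6.08 points. With windows of 500 bp the senescent gene-end difference was 5.62 points, and with 3000 bp it was 9.55 (proliferating) and 12.5 (senescent). The cause was not tested; the bands by distance show the densities behind the zone limits. Left out in turn, the 39 ends gave density ratios of 1.03 to 1.12 (proliferating), 0.983 to 1.08 (senescent) and 1.18 to 1.31 (quiescent), width ratios of 0.987 to 1.01, 1.03 to 1.05 and 0.974 to 1.01, overlap differences of -1.33 to -0.13 (proliferating with senescent), 2.03 to 4.42 (senescent with proliferating), -0.35 to 0.07 (quiescent with proliferating) and -1.18 to -0.05 points (quiescent with senescent), and a senescent to proliferating ratio of 0.942 to 0.964. No paired analysis was possible because each state has 1 peak list. Without read depth or replicates, differences in peak number between states cannot be told apart from differences between libraries, and gaps of the assembly near the ends were not mapped here.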
